A study of Mus musculus with 2 samples.

Results

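The genes described here are 9 genes of vitamin A (retinoid) metabolism and response, Stra6, Crabp1, Crabp2, Aldh1a3, Dhrs3, Cyp26b1, Rara, Rarb and Rarg, chosen by symbol from the 32285 genes in the deposited tables. They were measured by scRNA-Seq in GL261, a mouse glioma cell line of the C57BL/6 strain whose cell type the labels give as astrocytoma, with 1 library of adherent cells and 1 of neurosphere cells. Adherent cells grew attached to the dish in DMEM with 10% fetal bovine serum and penicillin-streptomycin. Neurosphere cells grew for 12 days in that same serum medium, to which B-27 at 1:50, Fibroblast Growth Factor at 20 ng/ml and Epidermal Growth Factor at 20 ng/ml had been added, and formed floating aggregates. Per the labels, both kinds of cell were treated with trypsin, the neurospheres were also broken up by pipetting through ever narrower tips, and both were frozen in medium with DMSO before the 10x Genomics 3′ libraries were made. The study's methods name trypsin at this step for the adherent cells only. B-27 is a culture supplement whose standard form contains a retinoid, and a form without vitamin A is also sold. The labels do not say which was used. The supplements, the floating growth, the days in culture and the way the cells were dissociated changed together, so their parts in any difference below cannot be told apart.

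Retinol, the transport form of vitamin A, enters cells through the STRA6 receptor and is oxidised first to retinal and then to retinoic acid. Retinal dehydrogenases such as ALDH1A3 carry out the last step, DHRS3 turns retinal back into retinol, CRABP proteins carry retinoic acid inside the cell and CYP26 enzymes break it down. Retinoic acid acts through the receptors RARα, RARβ and RARγ, which bind DNA as pairs with retinoid X receptors at repeated hexamers. Rarb, Stra6, Dhrs3, Crabp2 and the Cyp26 genes are known as genes that retinoic acid itself induces in many cells, and ALDH1A3 is widely used as a marker of mesenchymal glioma cells.

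Rarb carries the textbook example of such a DNA element, so its sequence is shown before the values. It was searched for as a direct repeat of the consensus hexamer AGGTCA and 3 variants of it (the hexamer AGTTCA, then the hexamer GGGTCA and last the hexamer GGTTCA), on either strand, with 5, 2 or 1 bases between them, in windows from 250 bases before to 50 bases after each RefSeq start site (build GRCm38.p6). The 30 bases below lie at chr14:16575507-16575536 on the minus strand and run 5′ to 3′ from position -60 to position -31 of the Rarb start, with the hexamers in capitals.

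Rarb: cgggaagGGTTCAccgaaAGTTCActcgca

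The repeat itself lies at chr14:16575513-16575529, from -53 to -37, with 5 bases between its hexamers. GENCODE places it in the untranslated part of exon 1 of 2 Rarb transcripts whose annotated starts lie further upstream. A repeat with this spacing was found in 32 of 32544 windows (0.0983%), and repeats with spacings of 2 and 1 in 0.270% and 0.224% of them. Of the 7 retinoid genes that had a window, Rarb alone held a repeat of any of these 3 spacings. Crabp2 and Aldh1a3 had no entry. For contrast in sequence only, the upstream stretches of Rarg and Cyp26b1 are given as far as they lie outside annotated exons. Any single hexamer of either strand is in capitals. Both genes were more than 2-fold lower in neurosphere cells. Rarb, from few UMIs, also had a lower level there, with a log2-fold change of -1.36 (-2.51 to -0.29), so the 3 genes do not contrast in level. They lie on the minus strand at chr15:102257523-102257772 and chr6:84593909-84594060.

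Rarg: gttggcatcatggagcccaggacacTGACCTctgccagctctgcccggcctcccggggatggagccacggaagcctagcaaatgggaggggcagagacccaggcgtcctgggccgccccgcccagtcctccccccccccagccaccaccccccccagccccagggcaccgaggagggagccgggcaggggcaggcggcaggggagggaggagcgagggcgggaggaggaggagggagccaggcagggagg

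Cyp26b1: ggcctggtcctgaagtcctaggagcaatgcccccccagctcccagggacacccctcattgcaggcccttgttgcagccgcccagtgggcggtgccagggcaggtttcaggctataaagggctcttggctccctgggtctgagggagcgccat

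The Rarg stretch holds 1 single hexamer, on the other strand, and the Cyp26b1 stretch holds none. A single hexamer is common, being found in 43.7% of all windows. A match describes letters and is not a measured binding site.

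Levels were obtained by summing UMIs (unique molecular identifiers, each standing for 1 captured RNA molecule) over the kept cells of a culture, 5051 adherent and 4276 neurosphere cells. They are given as CPM, its UMIs per 1000000 UMIs of its library, with exact 95% Poisson intervals. The kept cells held 46290996 adherent and 64943938 neurosphere UMIs, with medians of 8260 and 13198.5 UMIs per cell, so that 1 UMI equals 0.0216 and 0.0154 CPM. With 1 library per culture there was no replicate check and no test, and all intervals cover counting error only. In such sums, fewer cells with a transcript and less of it per cell cannot be told apart. The astrocyte marker genes Aqp4 and Sox9 were at 0 UMIs in both libraries, although 8 of 10 markers in adherent and 7 of 10 in neurosphere cells exceeded 3 UMIs, with summed levels of 584 and 408 CPM. Summed levels of markers of other cell types were 13.2 and 5.11 CPM for 8 immune genes (Tyrobp at 0 in both), 1.51 and 3.94 CPM for 6 endothelial genes (Cdh5 at 0 in both) and 51.5 and 236 CPM for 6 neuronal genes (Snap25 at 0 in both). Their part in the results was not tested.

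Across the 9 genes, Rarg, Aldh1a3, Cyp26b1 and, less steeply, Dhrs3 had lower levels in neurosphere cells, Crabp2 had a higher level and Rara had nearly the same level. Of the 6 genes that reached 50 UMIs in the libraries together, 3 were over 2-fold lower in neurosphere cells (Rarg, Aldh1a3 and Cyp26b1) and 0 were over 2-fold higher. Among all 14654 genes with that many UMIs, 11.7% were over 2-fold lower and 21.7% over 2-fold higher. The median log2-fold change, neurosphere over adherent, was -1.06 for the 6 genes and 0.32 for all genes. Rarb, Crabp1 and Stra6 had fewer than 50 UMIs.

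**Figure D1:**
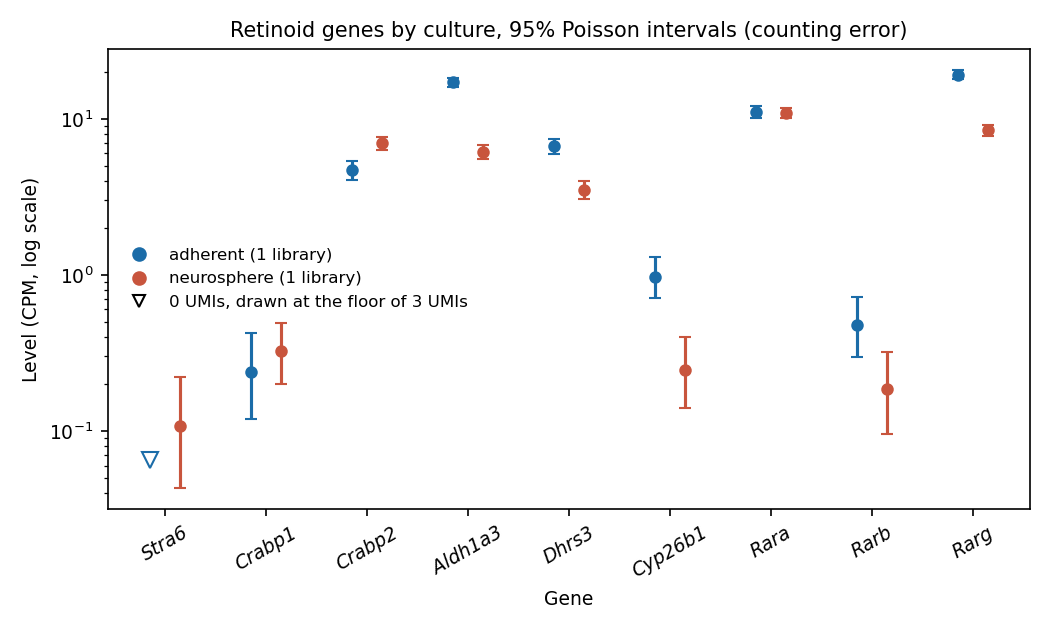
Level of each retinoid gene in CPM on a log axis, in the adherent (blue) and the neurosphere (red) library, with exact 95% Poisson intervals that cover counting error only. Rarg, Aldh1a3, Dhrs3 and Cyp26b1 sit lower in neurosphere cells with intervals that do not overlap, Rara is at 11.04 and 10.89 CPM, and Stra6 was at 0 UMIs in adherent cells and is drawn at the floor of 3 UMIs.

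Stra6 (ENSMUSG00000032327, chr9:58063788-58153996, plus strand), the retinol receptor, was the least abundant of the 9. No UMI was seen in 5051 adherent cells, where the floor of 3 UMIs is 0.0648 CPM and the exact Poisson interval reaches 0.0797 CPM. Neurosphere cells held 7 UMIs in 6 cells, or 0.108 CPM (0.0433 to 0.222). This was 1.66 times the floor of 3 adherent UMIs, but the exact conditional interval of the log2-fold change began at 0.04 and, without the richest neurosphere cell, at -0.61, so no direction could be read for Stra6. The gene overlaps Gm16131 on its own strand and Ccdc33 on the other.

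Among the carriers of retinoic acid, Crabp2 (ENSMUSG00000004885, chr3:87948666-87953376, plus strand) delivers it to the nucleus. Crabp2 had 216 adherent and 452 neurosphere UMIs, or 4.67 CPM (4.06 to 5.33) and 6.96 CPM (6.33 to 7.63). The log2-fold change of 0.58 (95% interval 0.34 to 0.82) was 0.25 above the median of all genes. When each cell was thinned by random draw to 5000 UMIs, which also left out shallower cells, the log2-fold change was 0.30 in 1 draw and 0.40 in another, and 0.38 in expectation. It was 0.59 in the same cells before thinning. Crabp1 (ENSMUSG00000032291, chr9:54764748-54773110, plus strand), its cytosolic relative, had 11 and 21 UMIs. Of the 21 neurosphere UMIs, 14 came from 1 cell. Without the cell with the most Crabp1 UMIs in each library, the counts were 9 and 7 and the log2-fold change turned from 0.44 (-0.67 to 1.64) to -0.85 (-2.51 to 0.74), so no direction could be read for Crabp1.

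Aldh1a3 (ENSMUSG00000015134, chr7:66390890-66427517, minus strand) makes retinoic acid from retinal. It had 792 adherent and 399 neurosphere UMIs, although the neurosphere library was deeper. The adherent level was 17.1 CPM (15.9 to 18.3) and the neurosphere level 6.14 CPM (5.56 to 6.78), which is 2.78-fold lower, and the log2-fold change was -1.48 (-1.65 to -1.30). Relative to the median of all genes Aldh1a3 was lower by more, with a difference of -1.80 on the log2 scale.

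Dhrs3 (ENSMUSG00000066026, chr4:144892827-144928209, plus strand), which reduces retinal to retinol, had 309 and 228 UMIs. The adherent level was 6.68 CPM (5.95 to 7.46), and the neurosphere level was 3.51 CPM (3.07 to 4.0). The log2-fold change of Dhrs3, -0.93 (-1.18 to -0.68), was just inside 2-fold. It passed 2-fold, at -1.14, with scaling by TMM (trimmed mean of M-values) and, at -1.0014, without cells with 10% or more mitochondrial UMIs.

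Cyp26b1 (ENSMUSG00000063415, chr6:84571414-84593908, minus strand), a hydroxylase that starts the breakdown of retinoic acid, had 45 adherent and 16 neurosphere UMIs. The levels were 0.972 CPM (0.709 to 1.30) and 0.246 CPM (0.141 to 0.400). The log2-fold change of -1.98 (-2.90 to -1.13) was the lowest of the 6 genes. The value moved when cells were thinned to 5000 UMIs, for a reason that was not tested. In the cells deep enough to be thinned it was -1.94 before thinning, 1 random draw kept 20 and 11 Cyp26b1 UMIs (log2-fold change -0.77), another 16 and 12 (-0.33), and the mean expected over draws was 21.5 and 7.59 UMIs (-1.41). The other enzymes of its family were at or next to 0, Cyp26a1 with 0 UMIs in both libraries and Cyp26c1 with 0 and 1.

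The 3 receptors differed from one another. Rara (ENSMUSG00000037992, chr11:98927818-98974942, plus strand) had 511 and 707 UMIs, or 11.04 CPM (10.1 to 12.0) and 10.89 CPM (10.1 to 11.7). Its log2-fold change was -0.02 (-0.19 to 0.15), was -0.24 with TMM scaling and turned to 0.20 with the removed mitochondrial and ribosomal genes put back into the totals. It lay 0.34 below the median of all genes, a difference of -0.34. The gene overlaps the small nuclear RNA gene Gm22061.

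Rarg (ENSMUSG00000001288, chr15:102234938-102257517, minus strand) had 888 adherent and 548 neurosphere UMIs. It stood at 19.2 CPM (17.9 to 20.5) in the adherent library against 8.44 CPM (7.75 to 9.18) in the neurosphere library. The log2-fold change of Rarg was -1.18 (-1.34 to -1.03). With those removed genes put back into the totals it was -0.97, inside 2-fold, while the median of all genes moved from 0.32 to 0.54.

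Rarb (ENSMUSG00000017491, chr14:16430839-16819156, minus strand), the gene with the repeat shown above, had only 22 adherent and 12 neurosphere UMIs, each in a different cell. The levels were 0.475 CPM (0.298 to 0.720) and 0.185 CPM (0.0955 to 0.323), with a log2-fold change of -1.36 (-2.51 to -0.29). Top2b and the antisense gene Gm48162 overlap Rarb on the other strand. The gene spans 388318 bases, longer than 98.2% of the genes with at least 50 UMIs, and whether reads in introns were counted is not given in the sources used here, so these few UMIs are uncertain.

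The receptors and the retinal dehydrogenases differed in their make-up between the cultures. Summed over the 3 receptors, the level was 30.7 CPM in the adherent and 19.5 CPM in the neurosphere library, and the log2-fold change was -0.65 (-0.76 to -0.54). Rarg made up 62.5% of the adherent receptor UMIs (exact binomial interval 59.9 to 65.0%) and 43.3% of the neurosphere ones (40.5 to 46.0%), and Rara made up 36.0% (33.5 to 38.5%) and 55.8% (53.0 to 58.6%). Rarg was thus the leading receptor by UMIs in adherent cells and Rara in neurosphere cells. For the carriers, Crabp2 made up 95.2% and 95.6% of the UMIs.

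For the retinal dehydrogenases the shift in shares was larger. Aldh1a2, the enzyme that makes most of the retinoic acid of the early embryo, had 3 adherent UMIs (0.0648 CPM, 0.0134 to 0.189) and 433 neurosphere UMIs (6.67 CPM, 6.05 to 7.33), a log2-fold change of 6.68 (5.13 to 8.97). Of the adherent UMIs of the 4 retinal dehydrogenase genes Aldh1a3 held 98.8% (97.7 to 99.4%), and of the neurosphere UMIs it held 45.4% (42.1 to 48.8%), while Aldh1a2 held 49.3% (46.0 to 52.7%). Per kilobase of exon the neurosphere shares were 29.4% for Aldh1a3 and 65.1% for Aldh1a2. In these 3′ libraries each UMI stands for 1 molecule whatever the exon length, so the shares of UMIs are the ones to read. The sum over the family differed less than its members, with 802 UMIs (17.3 CPM) and 878 UMIs (13.5 CPM) and a log2-fold change of -0.36 (-0.50 to -0.22). Aldh1a1 had 6 and 22 UMIs and its near-copy Aldh1a7 had 1 and 24, and how reads were shared between these 2 is uncertain.

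**Figure D2:**
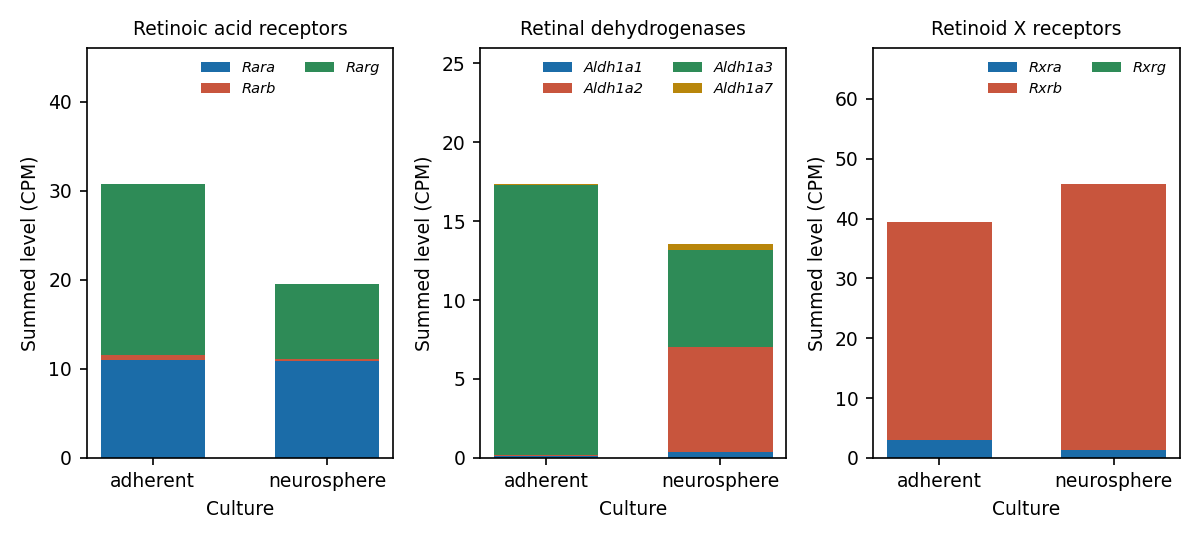
Summed level in CPM of the retinoic acid receptors, the retinal dehydrogenases and the retinoid X receptors in the adherent and the neurosphere library, each bar divided by gene and drawn without error bars. Rarg takes 62.5% of the first adherent bar and 43.3% of the neurosphere bar, Aldh1a3 takes 98.8% and 45.4% of the second pair, and Rxrb takes 92.3% and 97.2% of the last pair.

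The receptors' partners were dominated by Rxrb, which had 1681 and 2885 UMIs, or 36.3 CPM (34.6 to 38.1) and 44.4 CPM (42.8 to 46.1). Rxra was over 2-fold lower in neurosphere cells, with 141 and 83 UMIs and a log2-fold change of -1.25 (-1.66 to -0.85). Rxrg had no UMI in either library.

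A list of 71 other genes of the pathway gives the wider setting. Of these, 41 had at least 50 UMIs, of which 14 (34.1%) were over 2-fold higher in neurosphere cells, 7 (17.1%) over 2-fold lower and 20 within 2-fold, with a median log2-fold change of 0.40. Both shares and the median were above those of all genes. The list was chosen with earlier results of these data known, so this is a description and not a test. With TMM scaling 9 rather than 14 genes were over 2-fold higher, and Ncoa2, Ep300, Hoxa5, Rdh14 and Rdh11 then lay inside 2-fold. With the removed genes put back into the totals, 6 rather than 7 were over 2-fold lower and Rdh5 lay inside 2-fold.

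The enzymes that interconvert retinol and retinal differed in both directions. Of 14 genes, 10 were counted, of which 4 were over 2-fold higher and 3 lower, where all genes gave 21.7% and 11.7%. Rdh10, the main retinol dehydrogenase of the embryo, had 224 and 751 UMIs, or 4.84 CPM (4.23 to 5.52) and 11.6 CPM (10.8 to 12.4), a log2-fold change of 1.26. Rdh14 was higher by 1.13 on the log2 scale, and Adh1, an alcohol dehydrogenase that also accepts retinol, had 2 and 74 UMIs, a log2-fold change of 4.72 (2.82 to 7.79). Dhrs9, another retinol dehydrogenase, had 77 and 6 UMIs (log2-fold change -4.17, interval -5.66 to -2.98). Adh7 had 49 and 15 UMIs (-2.20) and Rdh5, known for its part in the visual cycle of the eye, had 416 and 266 (-1.13).

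Of 15 nuclear receptor partners, 14 were counted, with 3 (21.4%) over 2-fold higher and, in Rxra, 1 (7.14%) lower, shares no larger than the 21.7% and 11.7% of all genes. The 3 were co-activators of nuclear receptors, Ncoa1 with a log2-fold change of 2.06, Ncoa2 with 1.20 and Ep300 with 1.10, of which Ncoa1 alone was over 2-fold higher with TMM scaling. Among the uptake and storage genes, 3 of 12 were counted and Scarb1, a lipoprotein receptor that also takes up carotenoids, was over 2-fold higher at 1.31.

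The 24 response genes, which retinoic acid is known to influence in other cells, differed in both directions as well. Of the 13 counted, 5 (38.5%) were over 2-fold higher and 3 (23.1%) lower, beside 21.7% and 11.7% of all genes. The higher genes included the homeobox genes Meis1 (log2-fold change 2.20), Meis2 (1.57) and Hoxa5 (1.20) and the transcription factor gene Bhlhe40 (1.45). The lower genes were Zfp703 (-2.17), Egfl7 (-1.73) and Tgm2 (-1.36), which encodes a transglutaminase that retinoic acid induces in many cells. Hoxb1, Hoxb2, Hoxb3, Hoxb4, Hoxb5 and Cdx1 had no UMI in either library.

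**Figure D3:**
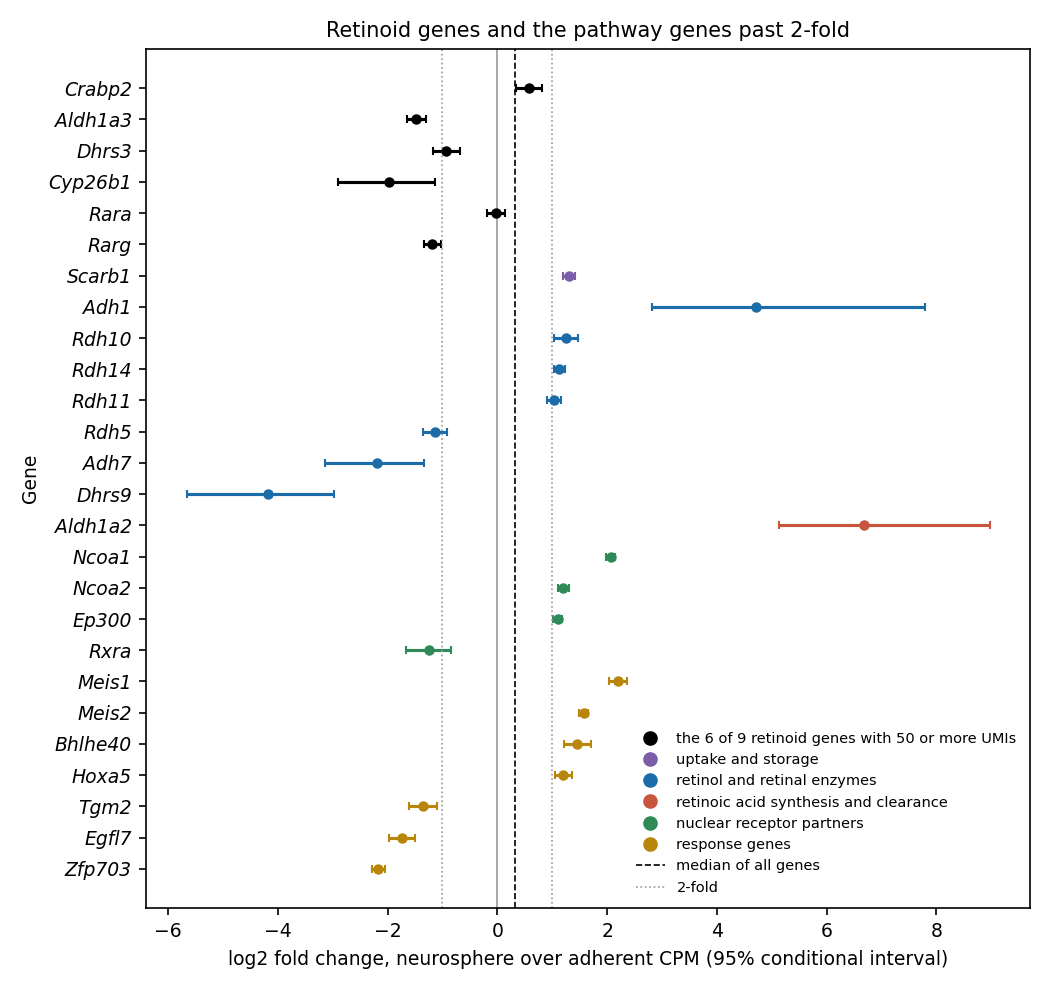
Log2-fold change, neurosphere over adherent CPM, of the 6 retinoid genes with at least 50 UMIs (black) and of 20 pathway genes past 2-fold (coloured by role), with exact conditional 95% intervals for counting error, 2-fold in each direction (dotted) and the median of all genes, 0.32 (dashed). Aldh1a2 at 6.68 and Adh1 at 4.72 lie farthest to the right and Dhrs9 at -4.17 farthest to the left, while Rarg, Aldh1a3 and Cyp26b1 lie left of the 2-fold line.

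Each retinoid gene was seen in a minority of cells. Before thinning, Rarg had a UMI in 15.4% of the adherent and 11.3% of the neurosphere cells, Rara in 9.50% and 14.3%, Aldh1a3 in 12.9% and 7.46%, Dhrs3 in 5.88% and 4.28% and Crabp2 in 3.23% and 6.43%. The other 4 genes were each seen in under 1% of cells. Neurosphere cells were deeper, so shares were compared after thinning each cell to 5000 UMIs, which left 4464 adherent and 4196 neurosphere cells and dropped 587 and 80 shallower cells. Rarg was then seen in 9.16% of adherent cells (exact binomial interval 8.33 to 10.0%) and 4.60% of neurosphere cells (3.99 to 5.28%). For Aldh1a3 the shares were 7.71% (6.94 to 8.53%) and 2.57% (2.12 to 3.10%), and for Dhrs3 3.14% (2.64 to 3.69%) and 1.55% (1.20 to 1.97%). These 3 genes had a lower share in neurosphere cells, with intervals that did not overlap.

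Rara, whose share before thinning was higher in neurosphere cells, was seen in 5.33% (4.69 to 6.03%) and 5.72% (5.04 to 6.47%) of the thinned cells, a difference within counting error. The thinned shares of Crabp2 were 1.75% (1.38 to 2.18%) and 2.53% (2.07 to 3.05%), with intervals that overlapped. Neither culture held a cell type known to lack these genes, so no background share from free RNA could be measured. Among the 713 adherent and 675 neurosphere barcodes that were removed, whose UMIs were in median 48.8% and 87.0% mitochondrial, a Rara UMI was seen in 6 and 13, a Rarg UMI in 10 and 10 and an Aldh1a3 UMI in 3 and 0.

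**Figure D4:**
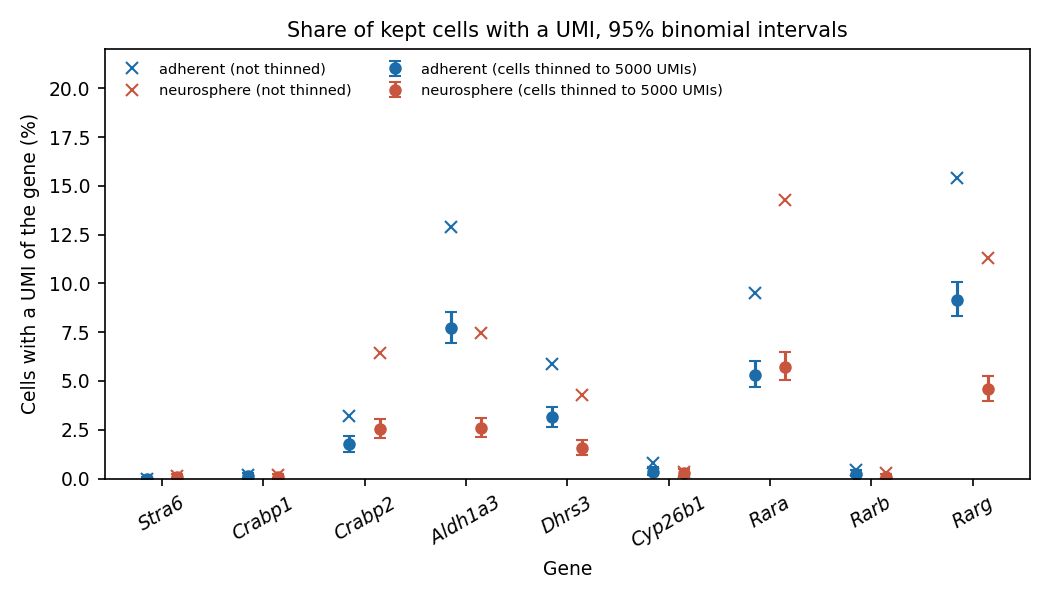
Percent of kept cells with at least 1 UMI of each retinoid gene, in all kept cells (crosses) and in cells thinned to 5000 UMIs (points, with exact 95% binomial intervals), for adherent (blue) and neurosphere (red) cells. The thinned shares of Rarg, Aldh1a3 and Dhrs3 are lower in neurosphere cells, and those of Rara are 5.33% and 5.72%.

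Crabp2 and, in neurosphere cells, Dhrs3 were spread unevenly over cells. In neurosphere cells 58.0% of its UMIs came from cells with 2 or more, the highest cell had 16 and 11 cells had 5 or more. In adherent cells 35.6% came from cells with 2 or more, and 4 cells had 5 or more, with a highest count of 12. For comparison, cells with 2 or more UMIs gave 22.4% and 23.0% of the Rarg UMIs in neurosphere and adherent cells, although Rarg had the higher count in both libraries. For Dhrs3 such cells gave 7.77% of the adherent and 32.0% of the neurosphere UMIs. The Fano factor (the variance of UMIs per cell over their mean) was taken from 1 random draw of cells thinned to 5000 UMIs. It was 2.48 for Crabp2 and 0.983 for Dhrs3 in adherent cells, and 1.29 for Crabp2 and 1.58 for Dhrs3 in neurosphere cells. These values rest on few UMIs and were not computed in another draw, so which of the pair was the less even in neurosphere cells could not be read.

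Few cells showed more than 1 of the 9 genes. Of the thinned adherent cells, 74.8% showed none, 22.6% showed 1, 2.40% showed 2 and 0.134% (6 cells) showed 3. In neurosphere cells the shares were 83.9%, 14.8%, 1.19% and 0.0953% (4 cells). Over these cells the Pearson correlations of pairs of the genes lay between -0.02 and 0.10 in adherent and between -0.02 and 0.07 in neurosphere cells, as a description of sparse counts in 1 library each. No other gene reached a correlation of 0.1 with Rara, Rarg or Aldh1a3 in adherent cells or with Rara in neurosphere cells, the cases with a UMI in at least 5% of cells.

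The cells of each library were then grouped with Seurat, leaving the 9 genes and the 71 pathway genes out of the variable genes, which gave 10 adherent and 11 neurosphere clusters. Clusters are called by number and leading genes, and their levels are descriptions of 1 library each. In neurosphere cells, Aldh1a3 and Crabp2 were highest in the same cluster. Cluster 7 (348 cells, led by Wnt7b, Prss56, Igf1, Fbn2 and Il11, with a median of 20949.5 UMIs per cell) held 31.6% of all neurosphere Aldh1a3 UMIs and 31.9% of all Crabp2 UMIs in 8.14% of the cells. By median its cells were the deepest of the 11 clusters, and they held 7830851 of the 64943938 UMIs. In CPM, which allows for this depth, Aldh1a3 and Crabp2 were at 2.62 and 2.64 times their culture levels. Aldh1a3 was at 16.1 CPM there (13.4 to 19.2), close to its level over all adherent cells, and a UMI was seen in 25.3% of its cells. Crabp2 was at 18.4 CPM (15.5 to 21.6), seen in 20.1% of the cells.

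Cluster 5 (417 cells, led by Chit1, Spp1, Wfdc3, Iigp1 and Gbp2) was the place of the highest Dhrs3 level, at 12.9 CPM (10.1 to 16.4) and with 30.7% of its neurosphere UMIs. Over all neurosphere cells Dhrs3 stood at 3.51 CPM. Crabp2 was also high in this cluster, at 16.3 CPM (13.1 to 20.0), and so was Rara, at 17.01 CPM (13.7 to 20.9). The 14 UMIs of Crabp1 from 1 cell were in cluster 5 as well.

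Cluster 6 (398 cells, led by Enpp2, Dusp15, Mbp, Gm4876 and Gpr17, of which Mbp and Gpr17 are known from oligodendrocytes and their precursors) was low in both Crabp2 and Aldh1a3. It had 1 Crabp2 UMI (0.265 CPM, 0.00671 to 1.48) and 7 Aldh1a3 UMIs (1.86 CPM, 0.746 to 3.82). Rarg was not low there, at 12.2 CPM (8.93 to 16.3). That was its highest neurosphere level, but within counting error of 11.8 CPM (9.35 to 14.7) in cluster 2 and 11.5 CPM (8.79 to 14.7) in cluster 5. Of the 16 neurosphere Cyp26b1 UMIs, 5 fell in cluster 6.

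Aldh1a2 and Aldh1a3 were high in different neurosphere clusters. Aldh1a2 was at 11.1 CPM (8.02 to 15.0) in cluster 6 and 10.5 CPM in cluster 2 (517 cells, led by Prr16 and Sult1e1), against 4.09 CPM in cluster 7 and 2.77 CPM (1.55 to 4.57) in cluster 5. In cluster 10 (81 cells, led by Cxcl2, Nppb and Cox6a2) Aldh1a2 was at 16.0 CPM (8.97 to 26.4), but from 15 UMIs in 5 cells, and the richest neurosphere cell held 11 Aldh1a2 UMIs. Aldh1a3 was at 2.14 CPM there from 2 UMIs. Rara and Rarg varied less, from 7.14 to 17.01 CPM and from 5.79 to 12.2 CPM over the clusters, and both were lowest in cluster 4 (455 cells, led by the replication genes Rrm2 and Ccne2).

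**Figure D5:**
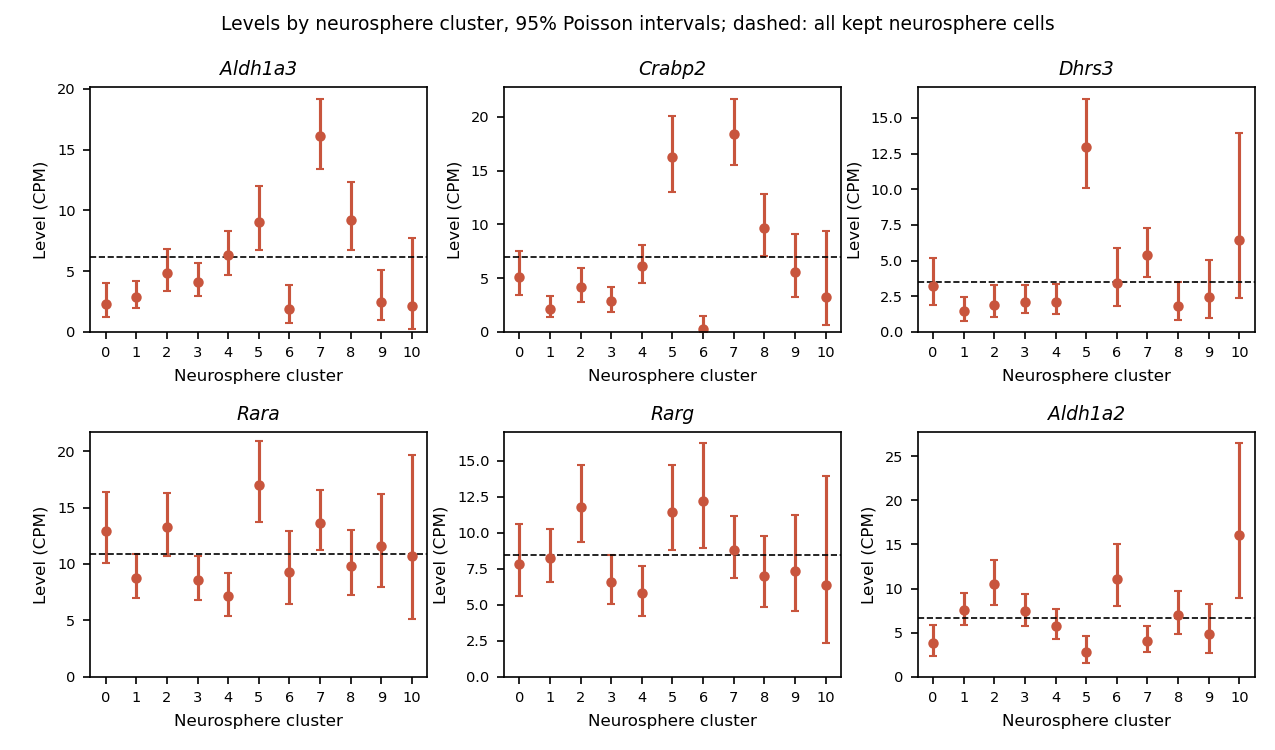
Level in CPM of 5 retinoid genes and of Aldh1a2 in each of the 11 neurosphere clusters, with exact 95% Poisson intervals and the level over all kept neurosphere cells (dashed). Aldh1a3 and Crabp2 peak in cluster 7 at 16.1 and 18.4 CPM, Dhrs3 in cluster 5 at 12.9 CPM, and Aldh1a2 is at 11.1 CPM in cluster 6, 10.5 CPM in cluster 2 and, from 5 cells, 16.0 CPM in cluster 10.

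Among the adherent clusters, Aldh1a3 ranged from 9.32 CPM in cluster 2 (691 cells, led by Cd68) to 29.8 CPM (22.7 to 38.4) in cluster 8 (215 cells, led by Ly6a), leaving out cluster 9, whose 47 cells had a median of 2600 UMIs and no Aldh1a3 UMI. Dhrs3 and Crabp2 were both highest in cluster 2, at 11.1 CPM (8.23 to 14.5) and 9.10 CPM (6.56 to 12.3). Rarg lay between 12.5 CPM in cluster 3 and 26.6 CPM (21.8 to 32.2) in cluster 5.

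The few Rarb UMIs, uncertain for the reasons above, lay unevenly over the adherent clusters. Of 22 UMIs, 12 were in cluster 6 (407 cells, 8.06% of the culture, led by Tex14, Gm43689 and Gm47962), at 3.79 CPM (1.96 to 6.62) against 0.475 CPM over all adherent cells. Rara was at 19.6 CPM (15.0 to 25.1) in that cluster and Rxrb at 87.5 CPM (77.5 to 98.4), both above their culture levels of 11.04 and 36.3 CPM, while Rarg, at 20.8 CPM (16.1 to 26.5), was near its own of 19.2 CPM. Of the 10 cases of a retinoid gene with at least 200 UMIs in a culture, 4 had a highest cluster over 2-fold the culture's level. The share of all genes that pass this rule was not computed, so whether 4 of 10 is unusual cannot be read. The 4 cases were Aldh1a3, Crabp2 and Dhrs3 in neurosphere cells and Rara in adherent cells, the last from 6 UMIs in cluster 9.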

How the data were processed

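The authors deposited raw UMI counts per gene and cell for the cells Cell Ranger called, 5764 adherent and 4951 neurosphere cells, before quality control. Per the labels, Cell Ranger 7.0.1 and mm10 were used (submitters' processing notes). Whether reads in introns were counted is not given in the sources used here. From these counts, 13 mitochondrial and 101 ribosomal protein genes were removed, then cells with under 1000 UMIs or under 1250 (adherent) or 2250 (neurosphere) genes, which left 5051 and 4276 cells. With the cell limits applied first, 5073 and 4300 cells were left, the numbers the study states. The libraries shared 12 cell barcodes, and no column of another sample was present (0).

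UMIs were summed per culture and divided by the library's total. Poisson, conditional and binomial intervals (95%) were exact. Genes that reached 50 UMIs in the libraries together were counted as higher or lower past 2-fold. No doublet caller was run. Leaving out cells above the 95th percentile of UMIs was an alternative. Clusters came from Seurat 5.3.0 (2000 variable genes less the retinoid genes, 17 and 18 principal components, resolution 1.0). TMM came from edgeR 4.0.16, used for scaling only. Other steps used Python 3.11.15, numpy 2.4.6, scipy 1.17.1 and pandas 2.3.3. Gene positions are from GENCODE release M21 (GRCm38) and promoter windows from RefSeq (GRCm38.p6), where 16 windows of 7 of the 9 genes were found.

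The 9 genes, the pathway list and the 2-fold rule were chosen with earlier results of these data known. Named are all 9 genes, at most 20 pathway genes past 2-fold (largest first) and the partner genes of their families. Some genes of the pathway list that this rule names are counted but not reported here by name.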

Additional observations from a re-analysis of the deposited data

How the results depend on the processing

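The counts past 2-fold and the fold changes of the 6 genes with at least 50 UMIs were recomputed with other cell filters, scalings and depths. For single pathway genes, only the changes of side at 2-fold named above are given, with TMM scaling and with the removed genes in the totals. The family shares and the cluster levels were not recomputed in these settings. The number of the 9 genes over 2-fold higher in neurosphere cells was 0 in each of these settings, and the number over 2-fold lower was 2 to 4, against 3. For the pathway list, TMM scaling gave 9 genes over 2-fold higher in place of 14, and counting without the minimum of 50 UMIs gave 15 over 2-fold lower in place of 7. By construction, the former shifts all genes by the same amount and the latter adds genes with few UMIs. All other such counts stayed within 1.5 times the reported one. TMM moved the median log2-fold change of all genes by -0.22, to 0.11, while totals that included the removed genes moved it by 0.22, to 0.54. The shares of all genes over 2-fold higher and lower were then 16.1% and 14.5%, and 29.5% and 9.38%. Aldh1a3 ranged from -1.75 to -1.26, Rarg from -1.40 to -0.97, Dhrs3 from -1.14 to -0.71, Cyp26b1 from -2.20 to -0.33 (the latter from 1 of the random draws to 5000 UMIs) and Crabp2 from 0.30 to 0.80, all without a change of sign, while Rara ranged from -0.24 to 0.20 and changed sign in 6 settings. The share of thinned cells with a UMI was higher in neurosphere cells for 3 genes, Rara, Crabp2 and Stra6, the last from 0 and 4 cells. With cells thinned to 3000 UMIs it was also higher for Crabp1, from 2 cells in each culture, making 4. The matching share of all genes was not computed, so these counts are not read further. At resolution 0.8, with 9 and 8 clusters, 4 cases again had a cluster over 2-fold the culture, and the share of all genes was not computed there either. Shares without thinning, values without the cell richest in a gene, the second draw, the expectation over draws and the deeper cells without thinning were chosen after seeing the data. No paired analysis was possible because each culture had 1 library. Rarb, Crabp1 and Stra6, with 7 to 34 UMIs in all, are limited by depth.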
